A study of Mus musculus with 52 samples.

Results

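The genes described here are 10 receptors and secreted factors that macrophages use to bind and clear cargo or that mark tissue-resident macrophages: Lyve1, Cd163, Marco, Cd5l, Siglec1, Msr1, Mrc1, Timd4, Stab1 and Vsig4. Each was read from a probe set annotated to that symbol alone, and each had 1 such probe set, out of 22180 genes that could be named in this way. The 10 were chosen on what the family is known to do and with results of these arrays in view: Lyve1 and Cd163 were picked from the log2 difference of vehicle from naive cells, as 2 genes high in vehicle. Levels in vehicle against naive cells are therefore given below as a description with no test. Of the 10 genes, 9 passed a filter on low values, as did 14911 genes in all, and Timd4 did not.

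Scavenger receptors are surface proteins with broad binding: they take up modified lipoproteins, bacteria, dying cells, haemoglobin complexes or glycans, and deliver them for breakdown. Resident macrophages of marrow, liver, spleen and vessel walls carry different sets of these receptors, and bone marrow macrophages with Siglec1 and Cd163 sit in islands around maturing red cells. Glucocorticoids are known to raise Cd163 in macrophages, and stromal cells grown from unsorted marrow are commonly accompanied by adherent macrophages.

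The cultures were grown from the marrow of female C57BL/6J mice aged 8 weeks, as primary stromal cells, and their RNA was read on Mouse Gene 2.0 ST arrays from Affymetrix. Marrow of 2 to 4 animals was pooled for each experiment, and the numbers 12, 15, 19 and 20 in the titles are read here as 4 such pools. All animals were of this strain, with no transgene or deletion named in the labels, and no sorting step is named. Naive cells are labelled undifferentiated and, per the growth protocol, were collected before the medium change of day 7 after plating, although the treatment protocol names them beside the dosed cells. The other 12 groups were given osteoinductive medium with ascorbate, glycerol phosphate, insulin and 10 nM dexamethasone, a glucocorticoid, and were collected after 1 or 4 days. Vehicle cultures received 0.1% DMSO. Rosi is rosiglitazone, an agonist of the nuclear receptor PPARγ, at 100 nM, and LG268 is LG100268, an agonist of its partner RXR, also at 100 nM. TBT is tributyltin, an organotin, at 80 nM, TPhP is the flame retardant triphenyl phosphate, and MEHP is the phthalate metabolite mono-2-ethylhexyl phthalate; the labels give no dose for the latter pair. Every group held 4 arrays, 1 of each pool, 52 arrays in 13 groups. Array medians lay between 3.97 and 4.15 (log2), and precision is limited by the 4 arrays in each group.

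The cultures are labelled mesenchymal stromal cells, and 11 of 12 stromal markers lay above the table median of 4.05 in 52 of 52 arrays. Macrophage markers passed this cut too: 21 of 21 measured genes of a pan-macrophage list, among them Csf1r, Adgre1, C1qa and Lyz2, lay above 4.05 in 52 of 52 arrays. Other cell types that could add to such cultures had markers above 4.05 too. Of 16 endothelial markers, 14 did so in every array, among them Cdh5, Pecam1, Flt4, Emcn and Stab2, and Prox1, which defines the lymphatic vessels where Lyve1 is also found, in 0 arrays. Of 16 monocyte and dendritic cell markers, 11 did so in every array, among them Cd209a and H2-Ab1, and Xcr1 in 0. Passing this cut is common: 14911 of 22180 genes exceeded 4.05 in at least 4 arrays. The share of all genes above it in every array was not computed. These counts alone therefore do not show that a cell type was present. RNA was taken from whole cultures, so fewer cells of a type and less RNA per cell cannot be told apart. In the TPhP day 1 array of pool 12 the mean of the macrophage list was 9.54, against 9.91 to 10.04 in the other arrays of that group. On that array Lyve1 read 6.62, Cd163 5.12, Marco 6.38, Siglec1 9.64, Mrc1 10.35, Stab1 9.46 and Vsig4 4.09, each the lowest of its group, whereas Msr1 (9.19) and Cd5l (9.20) were within the range of theirs. Centred on each gene's mean over all arrays, its correlation with group mates was 0.464, and some arrays had lower values. TPhP at day 4 had 0.214 and Rosi at day 1 had 0.333 in pool 12. Vehicle at day 4, the control of each day 4 comparison, had 0.293, 0.705, 0.404 and 0.376 in pools 12, 15, 19 and 20. Values in sets of 4 below are log2 expression in pools 12, 15, 19 and 20, in that order, and differences are log2 with limma's SE. That SE rests on 1 estimate of spread per gene over all 52 arrays, not on the spread of the groups compared. For Lyve1 at day 4, for example, the SD was 2.265 with Rosi and 0.50 in vehicle.

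Promoter sequence was given by RefSeq for 7 of the 10 genes (mouse build GRCm38.p6), and 5 of these are shown because the results turn on these genes: Cd163, high in vehicle cultures against naive cells, and Marco, Cd5l, Mrc1 and Stab1, which fell together with Rosi. Each run is the 250 bases before the annotated start, 5′ to 3′ on the gene's strand. Capitals mark the letters GAGGAA on either strand (read as TTCCTC on the other), the core bound by PU.1, the factor encoded by Spi1 that all macrophages need. The windows lie at chr6:124304401-124304650 on the plus strand for Cd163, chr1:120505025-120505274 on the minus strand for Marco, chr3:87357631-87357880 on the plus strand for Cd5l, chr2:14229164-14229413 on the plus strand for Mrc1 and chr14:31168642-31168891 on the minus strand for Stab1.
Cd163: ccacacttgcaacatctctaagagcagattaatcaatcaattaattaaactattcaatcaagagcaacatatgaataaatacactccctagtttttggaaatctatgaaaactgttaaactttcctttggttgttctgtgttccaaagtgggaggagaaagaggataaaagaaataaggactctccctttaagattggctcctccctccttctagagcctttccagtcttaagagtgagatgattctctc
Marco: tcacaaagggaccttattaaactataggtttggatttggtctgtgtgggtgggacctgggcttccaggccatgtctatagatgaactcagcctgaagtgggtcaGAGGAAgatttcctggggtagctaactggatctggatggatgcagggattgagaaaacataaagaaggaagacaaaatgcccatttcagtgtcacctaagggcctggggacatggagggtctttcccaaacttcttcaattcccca
Cd5l: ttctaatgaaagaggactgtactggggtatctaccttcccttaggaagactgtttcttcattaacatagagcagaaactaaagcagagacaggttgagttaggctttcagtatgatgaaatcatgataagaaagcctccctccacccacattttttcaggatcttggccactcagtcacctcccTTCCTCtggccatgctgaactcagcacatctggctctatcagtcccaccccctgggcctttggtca
Mrc1: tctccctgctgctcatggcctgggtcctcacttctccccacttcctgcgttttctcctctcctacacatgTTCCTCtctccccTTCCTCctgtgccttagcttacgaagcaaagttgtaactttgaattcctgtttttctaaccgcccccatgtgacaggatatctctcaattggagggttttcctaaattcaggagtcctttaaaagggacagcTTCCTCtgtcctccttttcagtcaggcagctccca
Stab1: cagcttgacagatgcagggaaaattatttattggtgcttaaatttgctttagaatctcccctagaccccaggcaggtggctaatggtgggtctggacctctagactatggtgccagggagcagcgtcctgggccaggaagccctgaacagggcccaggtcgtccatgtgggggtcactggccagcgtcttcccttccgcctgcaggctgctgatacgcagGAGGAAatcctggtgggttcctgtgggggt
The core was found in 5 of the 7 windows: once in Marco, Cd5l and Stab1, 3 times in Mrc1 and at 2 places in Vsig4, and it is in 23.3% of 32851 mouse promoter windows of this length. In Stab1 it began 30 bases before the start, and in Mrc1 the nearest began 35 bases before it. TGCTGA, a MAF half-site, was in 3 of 7 (Cd5l, Timd4 and Stab1) against 16.1% of all windows. Cd163 held no PU.1 core but 1 TGTTCT, a glucocorticoid element half-site, which is in 16.1% of all windows. The nuclear receptor half-site AGGTCA was in 1 of 7, Timd4, against 14% of all, and TATAAA in 0 of 7 against 12.4%. Both strands were searched. These are matches of letters and are not binding sites.

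Lyve1, Cd163 and Marco were higher in vehicle cultures than in naive cells by more than the other members at both days, with Vsig4 next at day 4, while the mean of the macrophage list stayed within 0.15 of its naive value in each pool at both days. Lyve1, which encodes a hyaluronan receptor of lymphatic vessels and of resident macrophages around blood vessels, read 4.91, 4.52, 4.96 and 6.06 in naive cells, 9.78, 10.51, 9.20 and 9.05 in vehicle at day 1 and 11.03, 11.93, 11.01 and 10.80 at day 4. The lowest day 1 array lay 2.99 above the highest naive array, and the day 4 arrays were higher again in every pool. This is a difference of 4.52 ± 0.75 at day 1, 23-fold, and of 6.08 ± 0.75 at day 4, 67.7-fold. Cd163, the receptor for haptoglobin-bound haemoglobin, read 5.05, 4.86, 4.99 and 4.48 in naive cells, 7.02, 7.32, 7.24 and 6.84 at day 1 and 8.88, 8.35, 7.54 and 7.54 at day 4. No day 1 array reached down to the naive arrays, and pool 12 had the highest day 4 value. Its difference was 2.26 ± 0.39 at day 1 and 3.23 ± 0.39 at day 4, 9.38-fold.

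Marco, a class A scavenger receptor that binds bacteria and particles, read 5.33, 4.31, 6.15 and 6.53 in naive cells, 7.86, 7.37, 7.76 and 7.64 in vehicle at day 1 and 7.88, 8.65, 8.43 and 8.14 at day 4. Naive arrays spread widely, with pool 15 lowest, and stayed below every vehicle array. The difference was 2.08 ± 0.38 at day 1 and 2.69 ± 0.38 at day 4, 6.47-fold. Vsig4, the complement receptor CRIg of resident macrophages such as Kupffer cells, read 5.30, 4.65, 4.38 and 4.49 in naive cells and 5.83, 8.01, 6.18 and 5.72 in vehicle at day 4. The groups did not overlap, and the pool 15 array stood well above the other 3 at day 4. Its difference was 1.73 ± 0.62, 3.32-fold.

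The other members were less far above naive cells or below them. Siglec1, a sialic acid receptor of marrow and lymph node macrophages, was 0.48 ± 0.15 higher in vehicle at day 4 than in naive cells, Mrc1, the mannose receptor, 0.50 ± 0.26, and Msr1, the class A scavenger receptor for modified lipoproteins, 0.37 ± 0.24, each in 4 of 4 pools. Stab1, a scavenger and clearance receptor of resident macrophages and sinusoidal endothelium, differed by -0.30 ± 0.20 at day 4, below naive cells in pools 12 and 15 and above them in pools 19 and 20. Cd5l, a secreted protein of resident macrophages also called AIM, read 9.18, 8.81, 9.63 and 9.55 in naive cells, 7.88, 6.62, 8.78 and 8.82 at day 1 and 10.30, 9.34, 8.43 and 8.60 at day 4. It was lower at day 1 in 4 of 4 pools (-1.27 ± 0.65), a larger difference than that of Vsig4 at that day (1.19 ± 0.62), and by day 4 it was above naive cells in pools 12 and 15 and below them in pools 19 and 20 (-0.13 ± 0.65). Timd4, the phosphatidylserine receptor TIM-4 of embryo-derived resident macrophages, ran from 2.88 to 4.26 over the 52 arrays and exceeded 4.05 in 1, a naive array. Over the 9 genes, vehicle arrays at day 4 lay above naive arrays without overlap in 6, where 13.1% of all genes tested did so. The genes were chosen with this contrast known, and nothing is read from that count.

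**Figure D1:**
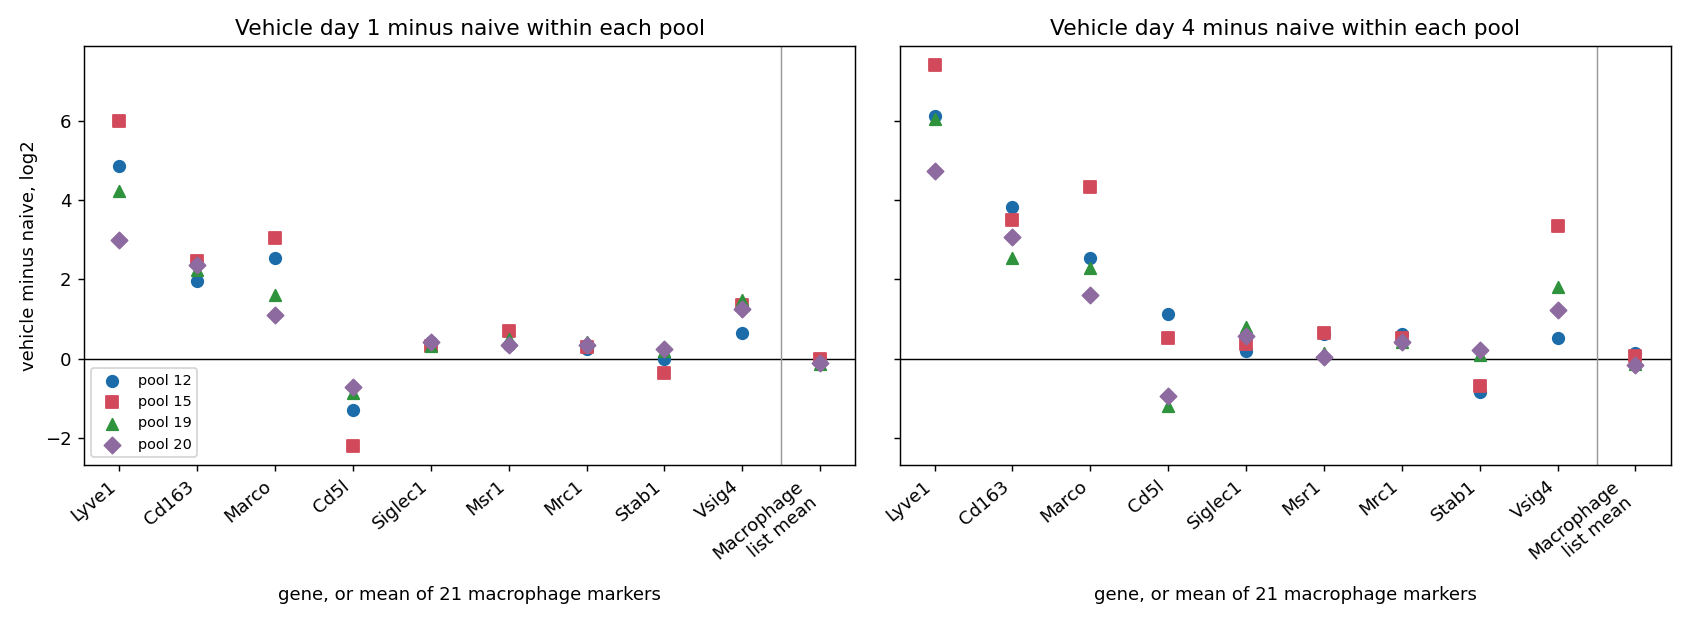
Vehicle minus naive within each pool, in log2 units on the vertical axis, for 9 receptor genes and, at the right, the mean of 21 macrophage markers, at day 1 (left panel) and day 4 (right panel). Each point is 1 pool, and colour and shape give the pool. Lyve1 lies between 2.99 and 7.41, Cd163 between 1.97 and 3.82, and the macrophage mean within 0.15 of 0.

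Set against the macrophage list pool by pool, the day 4 difference of Lyve1 exceeded that of the list by 6.10 ± 1.01 (SD, n = 4 pools), that of Cd163 by 3.25 ± 0.42, that of Marco by 2.72 ± 1.09 and that of Vsig4 by 1.75 ± 1.21. The excess was above 0 in 4 of 4 pools for each of these genes. Lists of other cell types and states moved between naive cells and vehicle as well. The mean of 15 monocyte and dendritic cell genes was 7.54 ± 0.05 (SD, n = 4) in naive cells, 6.67 ± 0.29 in vehicle at day 1 and 6.41 ± 0.53 at day 4. By day 4 the means of 12 stromal genes (8.82 to 9.55), 13 osteoclast genes (6.95 to 7.66), 11 adipocyte genes (7.68 to 8.29), 30 genes of resident or alternatively activated macrophages (8.11 to 9.06) and 16 glucocorticoid targets (7.41 to 8.57) were higher than in naive cells, and that of 15 endothelial genes was lower (6.17 to 5.84). Naive and vehicle day 4 arrays overlapped in the stromal, adipocyte and endothelial means. The mean of the resident macrophage list ran from 8.35 to 9.86 over the vehicle arrays of day 4. The part of these lists in the values of the receptor genes was not tested. Medium, DMSO and time in culture changed together here and cannot be told apart. From day 1 to day 4 of vehicle, Lyve1 was higher by 1.56 ± 0.75, Cd163 by 0.97 ± 0.39 and Marco by 0.62 ± 0.38, each in 4 of 4 pools with no overlap (as in 7.09% of all genes), whereas Stab1 was lower in 4 of 4 pools (-0.33 ± 0.20).

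**Figure D2:**
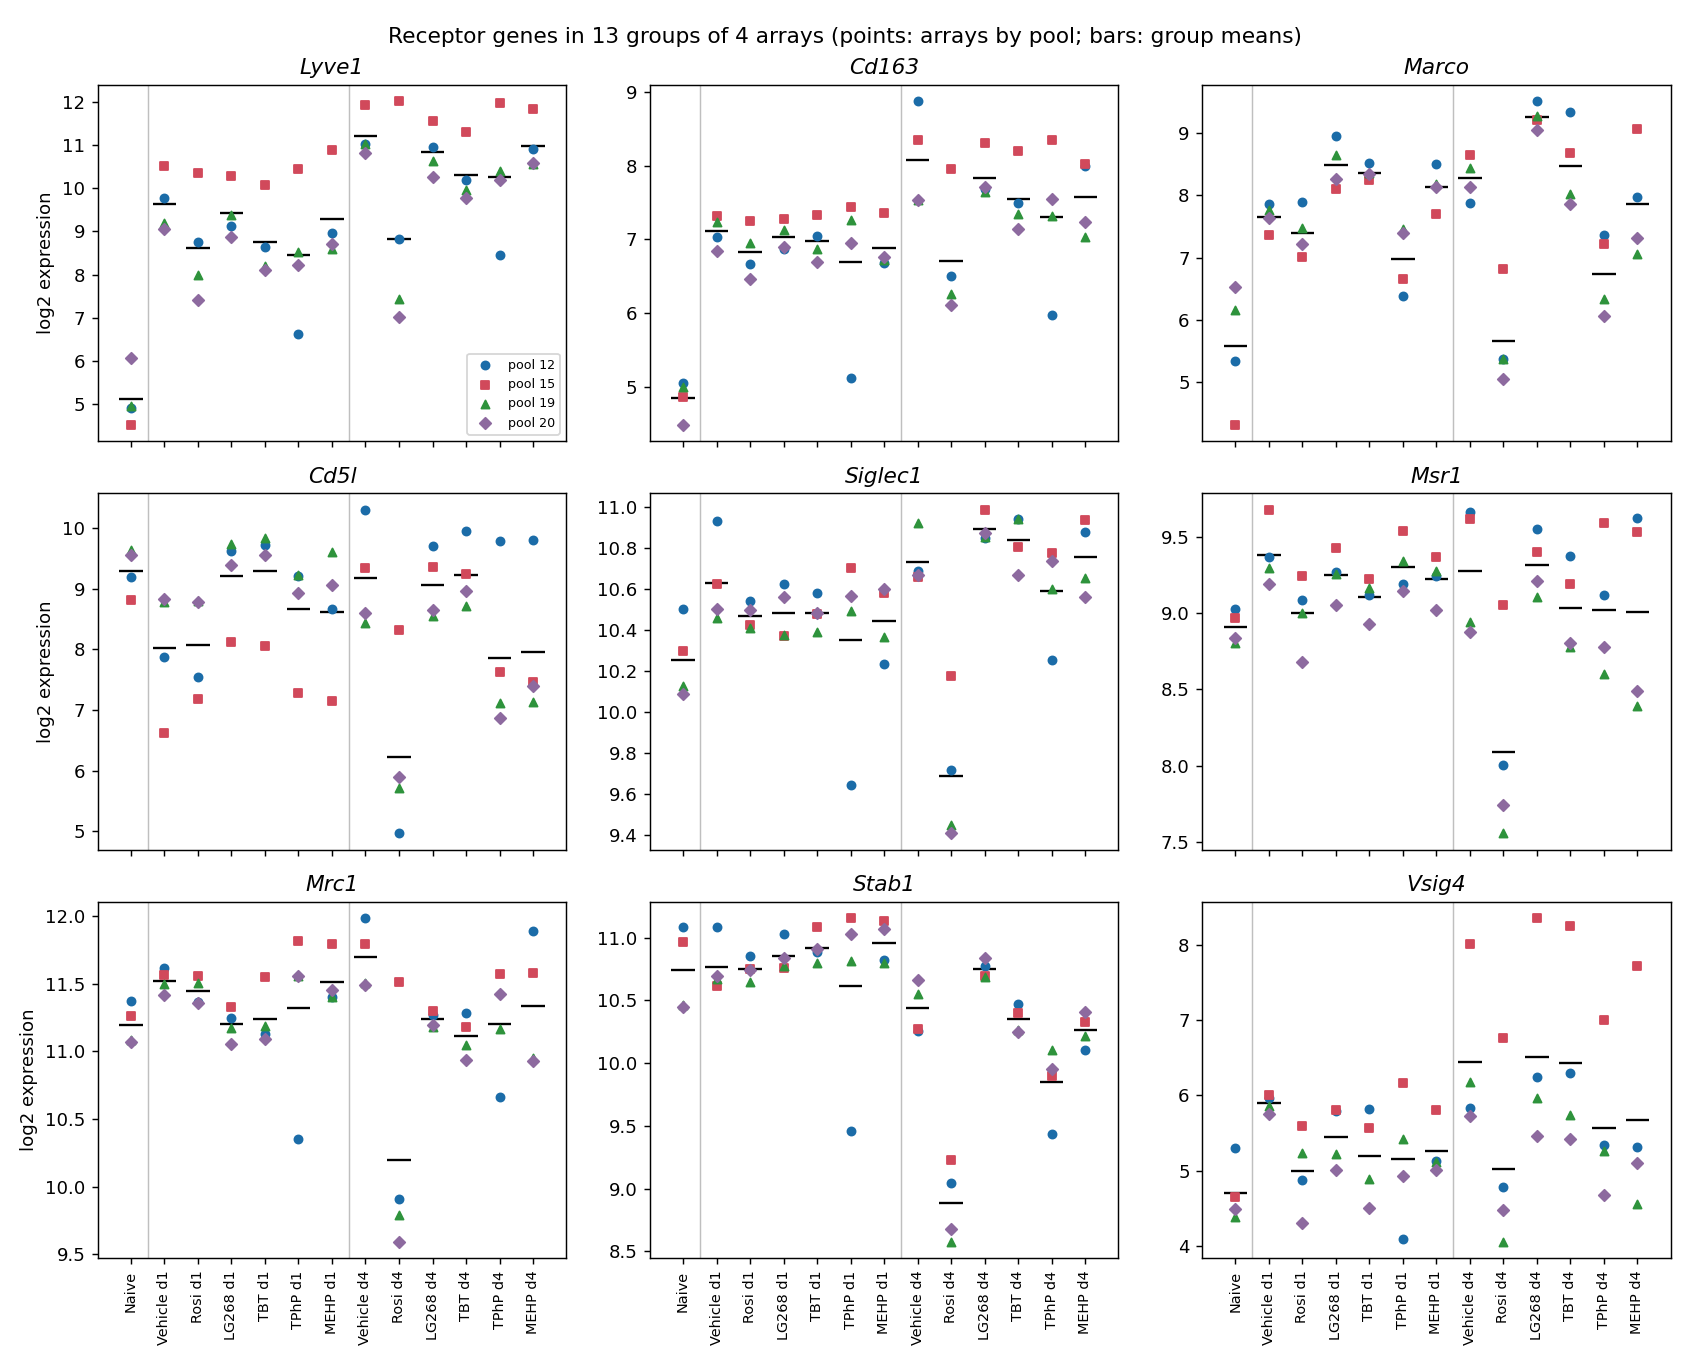
Log2 expression of 9 receptor genes (1 panel each, vertical axis) in 13 groups of 4 arrays (horizontal axis; d1 and d4 are days of exposure). Points are arrays, with colour and shape for the pool, and bars are group means. The Rosi day 4 mean is the lowest of the 13 groups for Cd5l, Siglec1, Msr1, Mrc1 and Stab1, and the naive mean is lowest for Lyve1, Cd163, Marco and Vsig4.

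Ordered by group mean, Lyve1 ran from 11.20 ± 0.50 (SD, n = 4) in vehicle at day 4 down to 8.45 ± 1.57 in TPhP at day 1, and neighbours in that order differed by less than the larger of their SDs. The step from there to naive cells (5.12 ± 0.66) was the only 1 that exceeded it. Cd163 had the same shape, from 8.08 ± 0.66 in vehicle at day 4 to 6.69 ± 1.07 in TPhP at day 1 and 4.85 ± 0.26 in naive cells. The 13 group means of both genes had Pearson r = 0.983, a description over groups that share pools. Marco was ordered otherwise: LG268 at day 4 was highest (9.26 ± 0.19), apart from its neighbour LG268 at day 1 (8.49 ± 0.38), and Rosi at day 4 (5.65 ± 0.79) sat beside naive cells (5.58 ± 0.98). Cd5l had 6 groups between 9.29 ± 0.38 (naive cells) and 9.06 ± 0.56 (LG268 at day 4), then 6 down to 7.85 ± 1.33 in TPhP at day 4, and Rosi at day 4 apart at 6.22 ± 1.45. Siglec1, Msr1, Mrc1 and Stab1 ended in the same way, with Rosi at day 4 below its neighbour by more than the larger SD. Stab1 had a further step, TPhP at day 4 (9.85 ± 0.29) under MEHP at day 4 (10.27 ± 0.13). Vsig4 ran without such a step from 6.51 ± 1.27 in LG268 at day 4 to 4.70 ± 0.42 in naive cells.

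After 4 days with Rosi, 8 of the 9 receptor genes fell below vehicle and none rose, where 27.7% of all genes tested fell and 21.3% rose. The median of the 9 differences was -1.5, against -0.05 over all genes tested. Rosi arrays lay below vehicle without overlap in 4 genes, Marco, Cd5l, Siglec1 and Stab1, as they did in 17.9% of all genes. These vehicle arrays are those of the vehicle and naive description, in which Lyve1 and Cd163 were picked as high. Comparisons of Lyve1 and Cd163 with vehicle therefore lean towards a fall, and both are in this count and median. The others that fell were Marco, Cd5l, Siglec1, Msr1, Mrc1 and Stab1. Adjusted p-values are limma's, after Benjamini-Hochberg adjustment over all genes tested, and a gene is said to rise or fall only below 0.05.

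Both class A receptors fell. Marco read 7.88, 8.65, 8.43 and 8.14 in vehicle and 5.37, 6.81, 5.38 and 5.05 with Rosi. All 4 Rosi arrays lay under the lowest vehicle array, and the pool 15 array was the highest of them. The difference was -2.62 ± 0.38, 6.16-fold lower (adjusted p = 2.23e-07). Msr1 read 9.66, 9.62, 8.94 and 8.88 in vehicle and 8.00, 9.06, 7.56 and 7.75 with Rosi; the groups overlapped only through pool 15 of Rosi. It fell by 1.19 ± 0.24 on the log2 scale in 4 of 4 pools (adjusted p = 5.19e-05).

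Cd5l, the secreted factor, fell as well. It read 10.30, 9.34, 8.43 and 8.60 in vehicle and 4.97, 8.32, 5.72 and 5.90 with Rosi. The highest Rosi array, pool 15, lay just under the lowest vehicle array, and pool 12 went from the highest value in vehicle to the lowest with Rosi. The difference was -2.94 ± 0.65, 7.69-fold lower (adjusted p = 0.00018), the largest mean difference of the 9 genes. Without pool 12 it was -2.15 (adjusted p = 0.0085), a smaller drop than that of Marco (-2.66) and Lyve1 (-2.43) without that pool.

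Receptors for glycans and sialic acid fell as well. Mrc1 read 11.99, 11.80, 11.50 and 11.49 in vehicle and 9.91, 11.51, 9.79 and 9.59 with Rosi. Pool 15 of Rosi lay among the vehicle arrays and the other 3 were well below them. The difference was -1.5 ± 0.26 (adjusted p = 3.84e-06). Siglec1 read 10.69, 10.66, 10.92 and 10.67 in vehicle and 9.72, 10.18, 9.45 and 9.41 with Rosi, with no overlap. It fell by 1.05 ± 0.15 on the log2 scale (adjusted p = 1.87e-07). Stab1 read 10.26, 10.27, 10.55 and 10.67 in vehicle and 9.04, 9.23, 8.58 and 8.68 with Rosi, again with no overlap. Its difference was -1.55 ± 0.20, 2.94-fold lower (adjusted p = 1.28e-08).

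Lyve1 was uneven across pools. It read 11.03, 11.93, 11.01 and 10.80 in vehicle and 8.83, 12.01, 7.44 and 7.01 with Rosi. Pools 12, 19 and 20 were lower with Rosi, with differences of -2.21, -3.58 and -3.80, while pool 15 was 0.08 higher and had the highest Lyve1 value of all 52 arrays. The mean difference was -2.37 ± 0.75 (adjusted p = 0.00735), which became 0.113 without pool 19, 0.103 without pool 20 and 0.0849 with only the 8 arrays compared. Cd163 read 8.88, 8.35, 7.54 and 7.54 in vehicle and 6.5, 7.95, 6.26 and 6.10 with Rosi. Pool 15 changed least and its Rosi array lay within the vehicle range. The difference was -1.37 ± 0.39 in 4 of 4 pools (adjusted p = 0.00299). Vsig4 read 5.83, 8.01, 6.18 and 5.72 in vehicle and 4.78, 6.76, 4.05 and 4.48 with Rosi. The pool 15 arrays were the highest of both groups, and every pool was lower with Rosi. Its difference of -1.42 ± 0.62 had an adjusted p of 0.0529, and of 0.00238 with the pool as replicate block, which brought the count to 9 of 9. Timd4, not tested, had a mean of 3.23 with Rosi and 3.42 in vehicle.

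**Figure D3:**
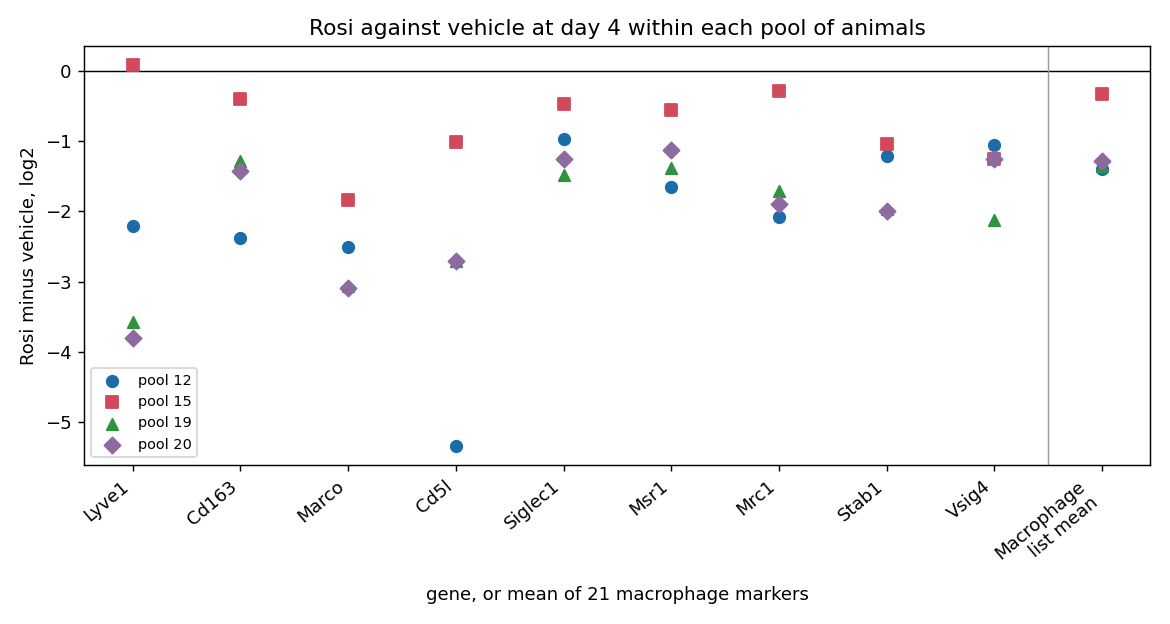
Rosi minus vehicle at day 4 within each pool, in log2 units on the vertical axis, for 9 receptor genes and, at the right, the mean of 21 macrophage markers. Each point is 1 pool, with colour and shape for the pool. Pool 15 lies nearest to 0 for Lyve1 (0.08), Mrc1 (-0.29) and the macrophage mean (-0.33), and Marco is at or below -1.84 in 4 of 4 pools.

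Pan-macrophage markers moved with these genes. All 21 tested fell with Rosi at day 4, with a median of -1.08, among them Lyz2 (-1.02 ± 0.11), lysozyme, Fcer1g (-1.15 ± 0.14), an adaptor of immune receptors, Spi1 (-1.09 ± 0.14) and Itgam (-1.52 ± 0.21), the integrin CD11b (adjusted p at most 4.41e-08). The mean of the list went from 9.94 to 10.36 in vehicle to 8.65 to 9.87 with Rosi, by -1.40, -0.33, -1.36 and -1.28 in pools 12, 15, 19 and 20. Beyond that mean, Marco was lower by a further 1.53 ± 0.31 (SD, n = 4), in 4 of 4 pools. The remainders of the other 8 genes, with their SD over pools, were as follows: Cd5l (-1.85 ± 1.43, below the list in 4 of 4 pools), Lyve1 (-1.28 ± 1.35, in 3 of 4), Stab1 (-0.46 ± 0.44), Mrc1 (-0.40 ± 0.33), Vsig4 (-0.32 ± 0.62), Cd163 (-0.28 ± 0.47), Msr1 (-0.09 ± 0.19) and Siglec1 (0.05 ± 0.27). No test was run on these remainders, and the part of the list's change in the fall of each gene was not tested. Stromal markers fell too, 9 of 12 with a median of -1.30, and adipocyte markers rose, 11 of 11 with a median of 2.31. Monocyte and dendritic cell genes had 1 of 15 lower, Plac8 (-1.18 ± 0.35), and neutrophil genes 1 of 14 lower, Csf3r (-0.73 ± 0.24), the receptor for G-CSF. Of 13 osteoclast genes, 8 fell and 1, Car2 (1.71 ± 0.25), rose. Of 15 endothelial genes, 1 fell, Eng (-0.41 ± 0.13), and 3 rose, Stab2 (0.85 ± 0.26), Kdr (1.37 ± 0.45) and Egfl7 (0.41 ± 0.17).

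Other genes of the same pathways were followed in lists chosen with earlier results of these data known, and their counts stand beside the 27.7% of all genes that fell and the 21.3% that rose. These lists share genes with the pan-macrophage list, whose tested genes all fell. Shared are Cd68 and Cd14 among scavenger receptors, Mertk, C1qa, C1qb and C1qc among efferocytosis genes, and Spi1 among transcription factors. Of 25 other scavenger receptors, 13 fell and 4 rose with Rosi at day 4. Colec12 (-1.71 ± 0.14), Scara3 (-2.19 ± 0.20) and Scarf2 (-1.58 ± 0.19) were lower, and Cd36 (2.16 ± 0.16), a fatty acid and oxidised lipoprotein receptor that adipocytes also carry, was higher. Of 30 genes of resident or alternatively activated macrophages, 17 fell and 0 rose (median -1.09), including Gas6 (-1.33 ± 0.14), a ligand that bridges dying cells to their receptors, Il1rn (-1.64 ± 0.17), the interleukin-1 receptor antagonist, Dab2 (-1.51 ± 0.22), an endocytic adaptor, and Ednrb (-2.13 ± 0.32), an endothelin receptor. Of 27 efferocytosis genes, which serve the uptake of dying cells, 14 fell and 5 rose. Elmo1 (-1.41 ± 0.12), which links the receptors to Rac, and Itgb5 (-1.15 ± 0.11) were among those that fell. Of 23 transcription factors of macrophages, 11 fell, as Runx1 (-1.03 ± 0.13) did, and 5 rose, among them Cebpa (1.51 ± 0.15), Nr1h3 (1.37 ± 0.15), which encodes LXRα, and Pparg (1.24 ± 0.14). Cebpa and Pparg are also on the adipocyte list, of which all genes tested rose. Of 12 genes that make, bind or degrade hyaluronan, the ligand of Lyve1, 5 fell and 2 rose, the latter a smaller share than over all genes. The synthase Has2 (-1.89 ± 0.34), the hyaluronidase Cemip2 (-1.99 ± 0.21) and the receptor Hmmr (-1.23 ± 0.16) were lower, and Hyal3 (0.90 ± 0.18), of the hyaluronidase family, was higher. Glucocorticoid targets had 6 higher and 3 lower of 16, the latter a smaller share than over all genes, with Zbtb16 (1.57 ± 0.31) and Pdk4 (1.05 ± 0.18) higher and Cebpd (-1.03 ± 0.17) and Errfi1 (-1.01 ± 0.17) lower.

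At day 1 no receptor gene passed the test with any of the 5 chemicals. The share of all genes called, in either direction, was 7.25% with Rosi, 0.241% with LG268, 0.543% with TBT, 0.215% with TPhP and 0.523% with MEHP. At an unadjusted p under 0.05 there was 1 gene with LG268, Marco, and 0 with each of the others. Marco read 7.86, 7.37, 7.76 and 7.64 in vehicle, 8.95, 8.10, 8.65 and 8.26 with LG268 and 8.53, 8.24, 8.35 and 8.34 with TBT. Each LG268 and each TBT array lay above the highest vehicle array, as 3.06% and 3.75% of all genes did. In the other direction, Mrc1 with LG268 (-0.32 ± 0.26) and Vsig4 with Rosi (-0.89 ± 0.62) lay below every vehicle array, as 2.94% and 7.95% of all genes did. For Marco the differences were 0.83 ± 0.38 with LG268 (adjusted p = 1, unadjusted 0.0367) and 0.71 ± 0.38 with TBT (adjusted p = 0.846). Cd5l read 9.62, 8.12, 9.73 and 9.38 with LG268 and 9.72, 8.06, 9.83 and 9.56 with TBT, higher than vehicle in 4 of 4 pools with each, and the groups overlapped. Its differences were 1.19 ± 0.65 and 1.27 ± 0.65 (adjusted p = 1 and 0.804). With only the arrays compared, Marco passed for TBT (adjusted p = 0.0214) and Vsig4 for Rosi (-0.89, adjusted p = 0.0398).

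**Figure D4:**
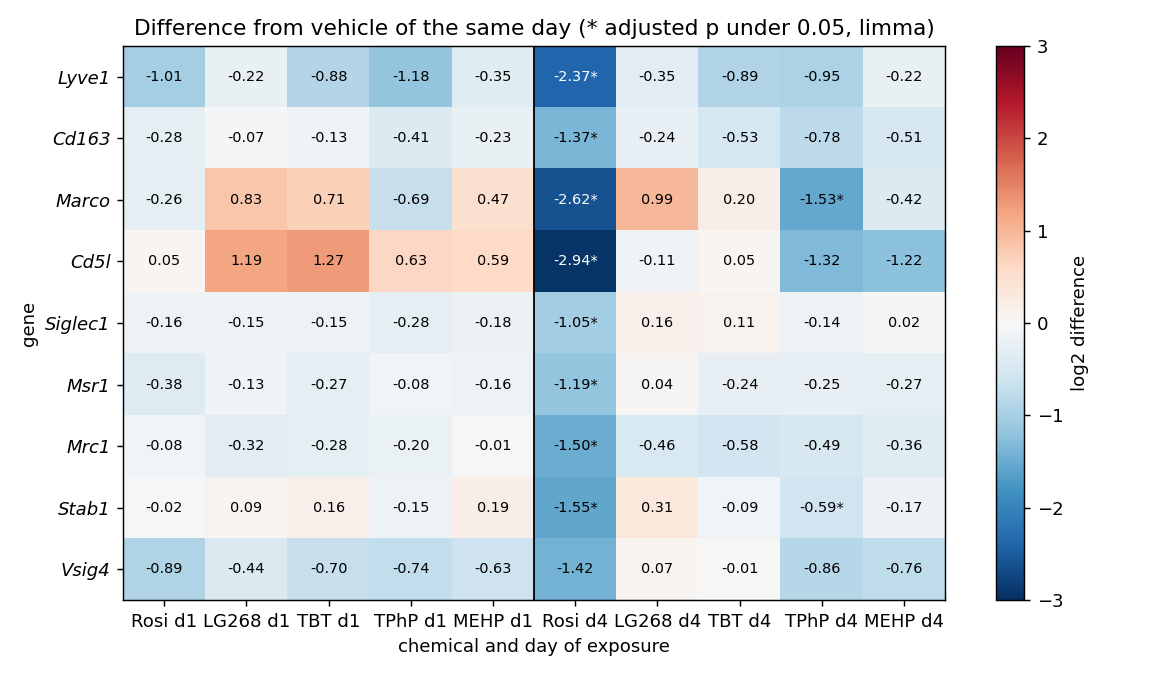
Difference of each chemical from vehicle of the same day, as log2 differences of means of 4 arrays, for 9 receptor genes (vertical axis) and 5 chemicals at day 1 (left of the line) and day 4 (right of it). Colour and printed value give the difference, and an asterisk marks a limma adjusted p under 0.05. Asterisks stand in the Rosi day 4 column (8 genes) and the TPhP day 4 column (Marco and Stab1).

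The effect of Rosi differed between the days, by the interaction term, in 5 of the 9 genes, all more negative at day 4, where 15.6% of all genes were. These were Marco (-2.36 ± 0.54, adjusted p = 0.000788), Cd5l (-2.99 ± 0.92, 0.0108), Siglec1 (-0.89 ± 0.22, 0.0014), Mrc1 (-1.42 ± 0.36, 0.00224) and Stab1 (-1.54 ± 0.28, 4.47e-05). Msr1 (-0.80 ± 0.34, adjusted p = 0.0671) passed with the replicate block (0.00663). Lyve1 (-1.36 ± 1.06), Cd163 (-1.10 ± 0.55) and Vsig4 (-0.52 ± 0.87) did not. Without pool 19 the count was 2, Marco and Stab1, and without pool 20 it was 3, with Siglec1, while without pool 12 Cd5l had an adjusted p of 0.0649. The same term gave 0 of 9 genes for each of LG268, TBT, TPhP and MEHP, where 0.0805%, 1.77%, 4.49% and 6.36% of all genes were called, and at an unadjusted p under 0.05 it gave 1 for TPhP, Cd5l, and 0 for the others. Without pool 12, Stab1 passed for TPhP (-0.85, adjusted p = 0.00442).

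With LG268, at the same dose as Rosi, 0 of 9 receptor genes passed the test at day 4, where 6.47% of all genes did. Marco read 9.51, 9.21, 9.27 and 9.05 with LG268, above all 4 vehicle arrays, as 7.21% of all genes were. The difference of 0.99 ± 0.38 had a 95% interval of 0.21 to 1.76 and an adjusted p of 0.118 (unadjusted 0.0139), which was 0.022 with only the arrays compared. Mrc1 read 11.27, 11.30, 11.18 and 11.20 with LG268, under every vehicle array, as 5.69% of all genes were, and differed by -0.46 ± 0.26 (adjusted p = 0.314). Stab1 with LG268 lay above every vehicle array (0.31 ± 0.20), in 4 of 4 pools. Intervals for Siglec1 (-0.15 to 0.47) and Msr1 (-0.44 to 0.52) were narrow, and those for Lyve1 (-1.86 to 1.16) and Cd5l (-1.42 to 1.20) held changes of more than 1 in either direction. These intervals do not use the pairing by pool, so spread between pools widens them. Within pools, LG268 minus vehicle was -0.09, -0.375, -0.39 and -0.54 for Lyve1. For Cd5l it was -0.60, 0.01, 0.11 and 0.05. Only Marco passed at an unadjusted p under 0.05.

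Set against LG268 directly, both at 100 nM for 4 days, Rosi had lower values in 9 of 9 genes, where 26.3% of all genes were lower. Marco differed most, by -3.61 ± 0.38, 12.2-fold (adjusted p = 1.79e-10), with no overlap. Stab1 (-1.87 ± 0.20, adjusted p = 1.81e-10), Siglec1 (-1.20 ± 0.15, 9.71e-09), Msr1 (-1.22 ± 0.24, 3.38e-05) and Cd5l (-2.83 ± 0.65, 0.000304) did not overlap either, as 21.7% of all genes did not in that direction. Lyve1 (-2.02 ± 0.75, adjusted p = 0.023), Cd163 (-1.13 ± 0.39, 0.0145), Mrc1 (-1.04 ± 0.26, 0.000725) and Vsig4 (-1.49 ± 0.62, 0.0427) overlapped, and pool 15 was not lower with Rosi for Lyve1 and Mrc1. At day 1 the same pair gave 0 of 9, where 6.99% of all genes were called, and 1 at an unadjusted p under 0.05, Marco (-1.09 ± 0.38, adjusted p = 0.0814). All 20 pairs of chemicals within a day were computed, and this pair is described because it alone has matched doses in the labels.

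TBT, at a lower dose of 80 nM, likewise gave 0 of 9 at day 4, where 20.1% of all genes were called. Mrc1 read 11.29, 11.18, 11.05 and 10.94, under every vehicle array, as 9.23% of all genes were, and was the only 1 with an unadjusted p under 0.05 (-0.58 ± 0.26, adjusted p = 0.104, and 0.0289 with only the arrays compared). Lyve1 was lower in 4 of 4 pools, by 0.63 to 1.05 (-0.89 ± 0.75, adjusted p = 0.438). Marco split by pool, 1.46 higher in pool 12 and from -0.42 to 0.02 in the others.

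TPhP lowered 2 of 9 receptor genes at day 4, where 7.94% of all genes fell. Marco read 7.36, 7.22, 6.33 and 6.06, all below the lowest vehicle array, a difference of -1.53 ± 0.38, 2.89-fold (adjusted p = 0.00308). Stab1 read 9.43, 9.90, 10.10 and 9.95, also below every vehicle array, as 4.94% of all genes were, and differed by -0.59 ± 0.20 (adjusted p = 0.0311). Both calls were lost without pool 19 (adjusted p = 0.0952 for Marco and 0.144 for Stab1) and without pool 20 (0.0615 and 0.20), and that of Stab1 also without pool 15 (0.0529) and with only the arrays compared (0.077). Without pool 12 both calls held, at -1.87 for Marco (0.00255) and -0.51 for Stab1 (0.006). Cd5l read 9.79, 7.62, 7.12 and 6.87, lower than vehicle in 4 of 4 pools (-1.32 ± 0.65, adjusted p = 0.162). Lyve1 (8.45, 11.97, 10.39 and 10.19) and Cd163 (5.98, 8.35, 7.32 and 7.55) were lowest in pool 12, as at day 1. In that pool Lyve1 was 2.58 and Cd163 2.90 below vehicle, while in the others Lyve1 differed by -0.63 to 0.03 and Cd163 by -0.22 to 0.02. The macrophage mean in these arrays was lower than vehicle by 0.74, 0.06, 0.41 and 0.12, and 3 of its 21 genes fell, Itgam (-0.64), Lyz2 (-0.39) and Cd33 (-1.35). Beyond that mean, Marco differed by -1.20 ± 0.98 (SD, n = 4), below it in 3 of 4 pools, and Stab1 by -0.26 ± 0.26, in 4 of 4. Other lists moved with TPhP too: 11 of 11 adipocyte genes rose (mean 8.29 to 10.61), and 6 of 12 stromal genes (9.55 to 8.99) and 5 of 13 osteoclast genes (7.66 to 6.98) fell. The part of these lists in the fall of Marco and Stab1 was not tested. MEHP gave 0 of 9, where 23.8% of all genes were called, and 0 at an unadjusted p under 0.05. Cd5l was lower in 4 of 4 pools with it (-1.22 ± 0.65, adjusted p = 0.181), and Vsig4 passed without pool 15 (adjusted p = 0.0414).

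Between day 1 and day 4 of the same chemical, Rosi cultures fell in 6 of 9 genes, where 26.5% of all genes did: Stab1 (-1.87 ± 0.20, adjusted p = 2.22e-10), Siglec1 (-0.78 ± 0.15, 3.47e-05), Mrc1 (-1.25 ± 0.26, 7.18e-05), Marco (-1.75 ± 0.38, 0.000194), Msr1 (-0.91 ± 0.24, 0.00143) and Cd5l (-1.85 ± 0.65, 0.0167). Cd5l lost its call without pool 12 (0.0505), 19 (0.169) or 20 (0.167) and with only the arrays compared (0.0559). Lyve1 differed by 0.20 ± 0.75, higher in pools 12 and 15 and lower in pools 19 and 20. Stab1 fell in 3 other chemicals as well: TBT (-0.57 ± 0.20, adjusted p = 0.0261), TPhP (-0.77 ± 0.20, 0.00234) and MEHP (-0.69 ± 0.20, 0.00559), where 15.3%, 17.2% and 18.5% of all genes fell. The TBT call was lost without pool 15 (0.109), 19 (0.116) or 20 (0.153) and with cyclic loess normalization (0.0517), and that of TPhP without pool 15 (0.0586) or 20 (0.0645) and with only the arrays compared (0.152). Without pool 12, whose TPhP day 1 array was the lowest of its group for Stab1, Stab1 differed by -1.01 in TPhP (adjusted p = 1.06e-06). LG268 had 0 of 9 called, where 19.2% of all genes were, and 2 at an unadjusted p under 0.05, Cd163 and Siglec1. With the pool as replicate block, Lyve1 was higher at day 4 in LG268 (1.43, adjusted p = 0.0396), TBT (1.55, 0.0182), TPhP (1.80, 0.00548) and MEHP (1.69, 0.00854), against 0.196, 0.122, 0.0626 and 0.079 without it. The block also called Vsig4 in LG268 (1.05, adjusted p = 0.047, against 0.258) and TBT (1.23, 0.0136, against 0.135), and Siglec1 in LG268 (0.41, 0.0435, against 0.053). Lyve1 was higher at day 4 in 4 of 4 pools in each of these 4 chemicals. Vehicle cultures moved the same way between the days, for Lyve1 (1.56 ± 0.75) and Stab1 (-0.33 ± 0.20), each in 4 of 4 pools. In the fit of all arrays the interaction term called neither gene for these 4 chemicals.

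Pools differed in the receptor genes throughout. Pool 15 lay above the group mean in 12 of 13 groups for Lyve1, by 1.23 on average, and for Vsig4, by 1.03, and in 13 of 13 for Cd163 (0.51), Msr1 (0.30) and Mrc1 (0.28). Cd5l went the other way, with pool 15 on average 0.47 under the group mean and pool 12 0.44 above it. In naive cells pool 15 was the lowest for Lyve1 and Marco.

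By the correlation of 13 group means, the genes nearest to each member were as follows, over groups that share animals and medium. The 10 receptor genes themselves were left out of this search, in which Lyve1 and Cd163 would name each other. Lyve1 had Cbr2 (r = 0.966), a carbonyl reductase, then Atg4a (0.958) and Gdap2 (0.957), and Cd163 had Slc39a1 (0.973), a zinc transporter, Tspan31 (0.965) and Cbr2 (0.964). Marco had Errfi1 (0.951), Epn2 (0.939) and Abcg2 (0.938), and Cd5l had Trem2 (0.96), a lipid receptor of macrophages and 1 of the 21 macrophage markers, Pld3 (0.937) and Creg1 (0.935). Siglec1 had Ninj1 (0.962), Pml (0.958) and Ssbp4 (0.943), and Msr1 had the scavenger receptor Colec12 (0.983), Ap1s2 (0.963) and Pitpna (0.957). Mrc1 had Fkbp15 (0.975), the interleukin-4 receptor gene Il4ra (0.964) and Chek2 (0.953), Stab1 had Mast3 (0.984), Tmem164 (0.978) and Dhx57 (0.975), and Vsig4 had Nt5e (0.949), Hps5 (0.942) and Ephx1 (0.925).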

How the data were processed

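The deposited table held log2 values of 41345 probe sets on 52 arrays, made by the authors; the submitters' processing notes name oligo and R 3.3.1, and how the arrays were normalized is not given in the sources used here. Probe sets with 1 gene symbol (23521) were used, 1814 with several and 16010 unnamed were not, and the probe set with the highest mean stood for a gene. A gene was tested if at least 4 arrays exceeded the table median, 4.05, which left 14911 of 22180 genes. All 52 arrays entered 1 limma fit of group means (39 residual degrees of freedom, moderated with 3.45 prior ones, two-sided), with Benjamini-Hochberg adjustment and a threshold of 0.05. 95% intervals use the same SE. The fit was checked on simulated data. Per the labels a pool of animals is 1 experiment, so same-numbered arrays share animals. After subtraction of group means, 45 of 52 arrays had a higher mean correlation with arrays of their own pool in other groups than with those of any other pool. A second fit took the pool as a replicate block, leaving 36 residual degrees of freedom, and is given where it changed a call. Every member is named, and the figures show each tested member in every group, while the text does not give every value. From each list at most 4 genes with the smallest adjusted p in the comparison described are named, and the 3 genes nearest each tested member by group means. Markers named for lying above the table median are examples and follow no such rule. The members and the lists were chosen with earlier results of these data known. Other settings were the block, only the arrays compared, cyclic loess, no filter, probe sets averaged, a filter at 6.34 (the 75th percentile) and each pool left out. Tests ran in limma 3.58.1 under R 4.3.3, and tables and plots were made in Python 3.11.15 with numpy 2.4.6, matplotlib 3.10.9 and pandas 2.3.3. Promoter sequences came from RefSeq (GRCm38.p6).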

Additional observations from a re-analysis of the deposited data

Results flagged for a closer look

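In 11 of 130 groups of 4 arrays looked at (10 genes in 13 groups), 1 array lay far from the other 3 by Dixon's ratio, which chance gives in about 1 in 20 groups. In MEHP at day 1 this was pool 15 for 4 genes, which shared that array: Lyve1 at 10.88 against 8.60 to 8.96 in the others, Cd163 at 7.36 against 6.67 to 6.75, Mrc1 at 11.80 against 11.41 to 11.46 and Vsig4 at 5.80 against 5.01 to 5.13. Pool 15 also stood above the rest for Mrc1 in Rosi at day 4 (11.51 against 9.59 to 9.91) and for Cd163 in LG268 at day 4 (8.31 against 7.64 to 7.70). For Cd5l it stood below them at day 1, in TBT (8.06 against 9.56 to 9.84) and in TPhP (7.28 against 8.92 to 9.22). The remaining arrays were pool 12 for Cd5l in MEHP at day 4 (9.80 against 7.13 to 7.46), pool 19 for Siglec1 in vehicle at day 4 (10.92 against 10.66 to 10.69) and pool 12 for Stab1 in vehicle at day 1 (11.08 against 10.61 to 10.69).

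The Rosi effect differed between day 4 and day 1 by limma's interaction term for Marco (-2.36), Cd5l (-2.99), Siglec1 (-0.89), Mrc1 (-1.42) and Stab1 (-1.54), each more negative at day 4 in 4 of 4 pools.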

How the results depend on the processing

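For 22 results, 10 alternatives were run. Most were counts of receptor genes called for 1 chemical: against vehicle, between days, or in the change of its effect between days. The last results were the sum of calls over all pairs of chemicals within a day, and the median difference of vehicle at day 4 from naive cells. Pairs were not followed singly. Counts that changed by over 1.5 times are given here. With the pool as replicate block, day 4 against day 1 gave 3 genes for LG268 (0 without it), 3 for TBT (1), 2 for TPhP (1) and 2 for MEHP (1). The other 18 results had no such change with the block. With only the arrays compared, there was 1 gene for Rosi and 1 for TBT against vehicle at day 1 (0 each in the fit of all arrays), 1 for LG268 and 1 for TBT at day 4 (0 each) and 1 for TPhP at day 4 (2). The same setting gave, for day 4 against day 1, 4 for LG268 (0), 3 for TBT (1), 0 for TPhP (1) and 2 for MEHP (1). Cyclic loess gave 1 for LG268, 2 for TPhP and 2 for MEHP there, and the stricter filter 1 for LG268 and 2 for TPhP. Leaving out each pool in turn, day 4 against day 1 ranged from 0 to 1 for LG268, 0 to 2 for TBT, 0 to 1 for TPhP and 1 to 2 for MEHP. Against vehicle at day 4 it ranged from 7 to 9 for Rosi, 0 to 2 for TPhP and 0 to 1 for MEHP. For the change of the effect between days it ranged from 2 to 7 for Rosi and 0 to 1 for TPhP. The sum over all pairs of chemicals ranged from 21 to 37, and the median of vehicle minus naive cells from 0.521 to 0.58. Fewer arrays enter the fit when a pool is left out or only the compared arrays are used, and the cause of these changes was not tested. Of 450 values for 45 pairs of a gene and a comparison, 384 kept their side of the threshold, 40 gained a call, 26 lost one and 0 changed the sign of a call; signs of values not called in either setting were not counted. Vsig4 had values near the table median in several groups, and Timd4, above it in 1 of 52 arrays, has no measured change.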
